A study of Mus musculus with 4 samples.

Results

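Transcripts of 50 genes of the cell division cycle, chosen by name, were followed through urethane-induced lung tumors and non-tumor lung of mice with and without the transcription factor Nrf2. The 50 comprise 7 genes that control the passage out of G1 (called G1/S genes here), 16 genes of DNA replication and nucleotide supply (S phase genes) and 27 genes of G2 and mitosis (mitotic genes). Of these, 47 were matched to 69 probes, and Ccnd1, Rrm2 and Prc1 were not matched. Of the 47, 43 were well above background on at least 1 array, by the scanner software's own criterion, and are called measured: 24 mitotic, 15 S phase and 4 G1/S genes. Ccne2, Cdk2, Cenpa and Kif11 were below it on every array, and 40 genes were above it on all 4 arrays. The array held 32300 genes or transcripts in all, of which 20553 were measured in the same sense.

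The 4 groups were Nrf2-/- tumor, Nrf2+/+ tumor, Nrf2-/- non-tumor lung and Nrf2+/+ non-tumor lung, all from female ICR mice aged 6 months. Every animal had received urethane (ethyl carbamate, which causes lung tumors in mice) at 1 g/kg by intraperitoneal injection 16 weeks earlier, so the non-tumor lung was exposed to the carcinogen too. Tumors between 1.0 and 1.5 mm across were cut free of surrounding tissue under a microscope. Each group was a single array hybridised with 500 ng of RNA pooled from 8 mice, and the sources used here do not say whether both tissues of a genotype were taken from the same mice. There are therefore no replicates, no difference between 2 arrays carries a p-value, and the number of arrays limits the precision throughout.

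Cyclin D and cyclin E kinases release E2F transcription factors in late G1, which switch on the genes that license origins, copy DNA and supply nucleotides. Later, in G2, cyclin B with Cdk1 drives entry into mitosis, and the spindle checkpoint holds the anaphase-promoting complex until every chromosome is attached, after which the chromosomes part and the cell divides. Transcripts of the mitotic genes accumulate in G2 and are less abundant in tissue with fewer dividing cells.

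The targeted gene gave the check on the labels. Nfe2l2, which encodes Nrf2, read 6.94 signal units in Nrf2-/- tumor against 7478 in Nrf2+/+ tumor, and 5.13 in Nrf2-/- against 7913 in Nrf2+/+ non-tumor lung. It was not well above background in either Nrf2-/- pool. Alveolar type 2 markers, which define the lung tissue, were all 11 well above background on every array. Between 54.2% and 63.5% of spots were well above background and none was saturated. For the median member, the error that the scanner software gives to an Nrf2+/+ tumor difference was 0.21 on the log2 scale. Probes of 1 gene differed by a median of 0.14 in the Nrf2+/+ tumor difference over the 9 genes with more than 1 probe on all arrays. The Nrf2+/+ non-tumor array lay alone on a slide and the other 3 arrays shared another. The Nrf2-/- tumor against non-tumor comparison and the comparison of the 2 tumor pools thus lay within a slide, the remaining comparisons crossed slides, and slide and genotype cannot be told apart as sources of a tumor difference that differs between genotypes.

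Below, a scaled signal is a gene's signal as a percent of the 75th percentile of its own array, which was 584 units for Nrf2-/- tumor, 555 for Nrf2+/+ tumor, 742 for Nrf2-/- non-tumor lung and 760 for Nrf2+/+ non-tumor lung. A tumor difference is the log2 of the scaled signal in tumor minus that in non-tumor lung of the same genotype.

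The mitotic genes stood high in Nrf2+/+ tumor and much less so in Nrf2-/- tumor. Their median tumor difference was 0.36 in Nrf2-/- mice and 1.28 in Nrf2+/+ mice over 24 genes, where the medians over all 20553 genes were -0.03 and -0.03. S phase genes differed less, with a median tumor difference of 0.07 in Nrf2-/- mice and 0.53 in Nrf2+/+ mice over 15 genes. The S phase median of the Nrf2-/- pair took the other sign, -0.20, where arrays were scaled on spike-in probes, a scaling that shifted the median of all genes in that pair to -0.29.

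Counted over all measured members, 2 of 43 were at least 2-fold higher in Nrf2-/- tumor than in Nrf2-/- non-tumor lung, below the 5.43% of all genes that were, and 0 were at least 2-fold lower, against 9.12% of all genes. In the Nrf2+/+ pair 22 of 42 members were at least 2-fold higher in tumor, against 8.08% of all genes, and 0 were lower, against 15.3% of all genes. Mitotic genes made up 2 of the 2 and 19 of the 22, and S phase genes 0 and 3. Among the 22, Cdc25c was below background in Nrf2+/+ non-tumor lung: with such genes at their lowest possible fold, a count chosen after seeing the data, 2 members were at least 2-fold higher in Nrf2-/- tumor (5.38% of all genes) and 21 in Nrf2+/+ tumor (7.83% of all genes). The 22 became 28 under median scaling, 27 under quantile normalization, 14 under spike-in scaling and 12 under normexp background correction. The share of all genes past 2-fold under these settings was not counted. By a mark of 1.96 times the software's error, which covers measurement only, 9 of 24 mitotic and 3 of 15 S phase genes were higher in Nrf2-/- tumor (15.9% of all genes), and 23 of 24 and 9 of 14 were higher in Nrf2+/+ tumor (23.3% of all genes).

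The mitotic genes lined up in nearly the same order over the 4 pools. Of 22 mitotic genes above background on all 4 arrays, 21 had their highest scaled signal in Nrf2+/+ tumor, as had 32% of all genes. The exception was Bub1, read on its brighter probe, while its dimmer probe was also highest in Nrf2+/+ tumor. For 19 of the 22 the order was Nrf2+/+ tumor, then Nrf2-/- tumor, then both non-tumor pools, an order that 22.5% of all genes shared. Some of the 19 had a Nrf2-/- tumor difference within the software error, such as Plk1 (0.06, error 0.21) and Nusap1 (0.14, error 0.24). Under spike-in scaling Ccnb2, Mki67 and Birc5 fell below Nrf2-/- non-tumor lung in Nrf2-/- tumor, and the order was not recounted under other settings. Of 14 S phase genes, 8 were highest in Nrf2+/+ tumor and 7 followed that order. In bulk tissue such as this, fewer cells in division and less RNA per dividing cell cannot be told apart.

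**Figure D1:**
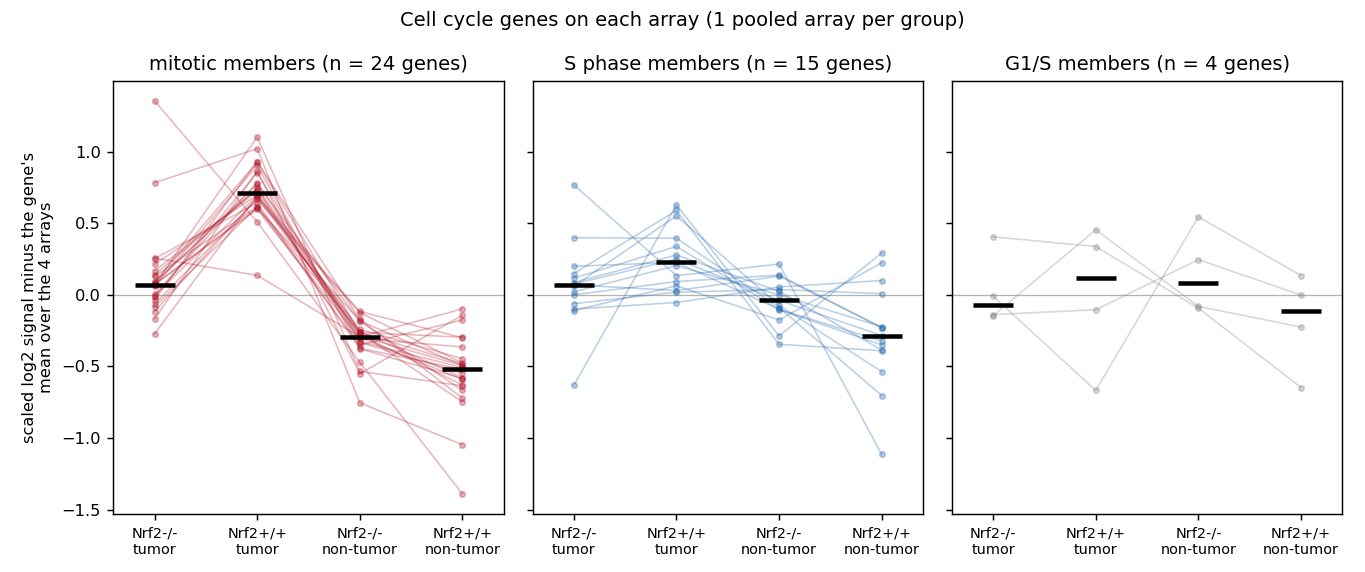
Scaled log2 signal of each measured gene minus that gene's mean over the 4 arrays (y axis) on each array (x axis), with 1 line per gene and black bars at the median of 24 mitotic, 15 S phase and 4 G1/S genes. Most mitotic lines peak on the Nrf2+/+ tumor array and are lowest in non-tumor lung. Of the 14 S phase genes above background on all arrays, 8 are highest in Nrf2+/+ tumor.

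The 3 genes most used to mark dividing cells showed the pattern one by one. Mki67, the Ki-67 protein that coats mitotic chromosomes, had signals of 1230 in Nrf2-/- tumor, 1697 in Nrf2+/+ tumor, 1312 in Nrf2-/- non-tumor lung and 1082 in that of Nrf2+/+ mice. Its scaled signals were 211%, 306%, 177% and 142% of the 75th percentile in that order. The Nrf2+/+ tumor pool was thus the highest, and the tumor difference was 0.25 in Nrf2-/- mice, or -0.01 under spike-in scaling, and 1.10 in Nrf2+/+ mice. A second probe gave 0.16 and 0.91.

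Cdk1, the kinase that drives mitosis, had signals of 171 in Nrf2-/- tumor, 333 in Nrf2+/+ tumor, 143 in Nrf2-/- non-tumor lung and 136 in that of Nrf2+/+ mice. Scaled, these were 29.3%, 59.9%, 19.3% and 18%, so that the non-tumor pools were close together and the tumor pools apart. Top2a, the topoisomerase that untangles sister chromatids, gave dim signals of 36.3, 67.2, 51.3 and 46.3 in the same order of groups. Only the Nrf2+/+ tumor pool stood out for Top2a: its tumor difference was -0.16 in Nrf2-/- mice, within a software error of 0.34, and 0.99 in Nrf2+/+ mice, with an error of 0.27.

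Among the G1/S genes no common direction appeared. Ccnd2, a D-type cyclin that couples growth signals to the cycle, had the lowest tumor difference of all measured members in both genotypes, each gene read on its brightest probe. Its scaled signals were 1079% in Nrf2-/- tumor and 683% in Nrf2+/+ tumor, against 1583% in Nrf2-/- non-tumor lung and 1192% in that of Nrf2+/+ mice, which gave tumor differences of -0.55 and -0.80. Cdk4, the kinase partner of D-type cyclins, had scaled signals of 181% in Nrf2-/- tumor, 274% in Nrf2+/+ tumor, 189% in Nrf2-/- non-tumor lung and 171% in that of Nrf2+/+ mice. It was raised in the Nrf2+/+ tumor pool alone, with a tumor difference of 0.68 there and of -0.07 in Nrf2-/- mice.

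Ccne1, the E-type cyclin of the G1/S transition, read differently on its 2 probes. The brighter one had scaled signals of 114% in Nrf2-/- tumor, 109% in Nrf2+/+ tumor, 81.0% in Nrf2-/- non-tumor lung and 55.1% in that of Nrf2+/+ mice, with tumor differences of 0.50 and 0.98. The dimmer one gave 0.37 in Nrf2-/- mice and -0.11 in Nrf2+/+ mice, so the direction in Nrf2+/+ mice rests on the probe. E2f1, the transcription factor at the head of the S phase program, also read differently on its 2 probes. The brighter E2f1 probe had scaled signals of 22.2% in Nrf2-/- tumor, 22.7% in Nrf2+/+ tumor, 28.9% in Nrf2-/- non-tumor lung and 24.4% in that of Nrf2+/+ mice. Its tumor differences were -0.38 in Nrf2-/- mice and -0.10 in Nrf2+/+ mice, the latter within a software error of 0.21. A dimmer E2f1 probe, above background on 3 arrays, gave -0.58 and -1.33. The size of the Nrf2+/+ difference thus rests on the probe.

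Genes of origin licensing and firing were close to level in Nrf2-/- tumor and moderately higher in Nrf2+/+ tumor. The median tumor difference over 10 of them was 0.04 in Nrf2-/- mice and 0.48 in Nrf2+/+ mice. Cdc6, which loads the replicative helicase onto origins, had scaled signals of 8.71% in Nrf2-/- tumor and 12.2% in Nrf2+/+ tumor, against 7.94% in Nrf2-/- non-tumor lung and 5.76% in that of Nrf2+/+ mice. It was the only licensing gene at least 2-fold higher in Nrf2+/+ tumor (1.09).

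Mcm2 to Mcm7 encode the 6 subunits of that helicase, and they did not move as a unit. Mcm7 had scaled signals of 714% in Nrf2-/- tumor, 833% in Nrf2+/+ tumor, 613% in Nrf2-/- non-tumor lung and 517% in that of Nrf2+/+ mice, and its tumor difference was 0.22 in Nrf2-/- mice (-0.05 under spike-in scaling) and 0.69 in Nrf2+/+ mice. Mcm4 read lowest in the tumors, at 449% and 464% against 500% and 516% in the non-tumor pools. Its tumor difference was -0.15 in either genotype, within the software error of 0.20. Mcm5, Mcm2 and Mcm6 lay between 0.43 and 0.66 in Nrf2+/+ mice and Mcm3 at 0.01, and in the Nrf2-/- pair all 6 lay between -0.15 and 0.22.

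Gmnn encodes geminin, the inhibitor that binds the licensing factor Cdt1 and blocks a repeated round of licensing. It differed from most other members. Its scaled signals were 134% in Nrf2-/- tumor, 321% in Nrf2+/+ tumor, 170% in Nrf2-/- non-tumor lung and 254% in that of Nrf2+/+ mice. Gmnn was lower in the Nrf2-/- pool in both tissues, by -1.26 in tumor and -0.58 in non-tumor lung on the log2 scale, and its tumor differences were -0.35 in Nrf2-/- mice and 0.34 in Nrf2+/+ mice. Cdt1 itself had tumor differences of 0.30 and 0.55. Cdc45, a helicase activator, was above background in Nrf2-/- non-tumor lung only, at a scaled signal of 4.12%.

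Tk1 and Tyms, enzymes of nucleotide supply, had the largest Nrf2+/+ tumor differences among the S phase genes. Tk1, thymidine kinase, had scaled signals of 238% in Nrf2-/- tumor, 154% in Nrf2+/+ tumor, 162% in Nrf2-/- non-tumor lung and 64.6% in that of Nrf2+/+ mice. Unlike most mitotic genes, Tk1 was highest in Nrf2-/- tumor and higher in Nrf2-/- than in Nrf2+/+ in both tissues, by 0.63 in tumor and 1.33 in non-tumor lung, and its tumor difference was 0.55 in Nrf2-/- mice and 1.25 in Nrf2+/+ mice. Tyms, thymidylate synthase, had scaled signals of 471% in Nrf2-/- tumor, 470% in Nrf2+/+ tumor, 336% in Nrf2-/- non-tumor lung and 219% in that of Nrf2+/+ mice. The 2 tumor pools were alike for Tyms, and the tumor difference was 0.49 in Nrf2-/- mice and 1.10 in Nrf2+/+ mice.

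Uhrf1, which recruits the maintenance DNA methyltransferase behind the fork, had tumor differences of 0.49 and 0.98 in Nrf2-/- and Nrf2+/+ mice. Rrm1, the large subunit of ribonucleotide reductase, had -0.06 and 0.26. Pcna, the sliding clamp of the replication fork, was highest in Nrf2+/+ non-tumor lung: its scaled signals were 1063% in Nrf2-/- tumor, 1198% in Nrf2+/+ tumor, 1016% in Nrf2-/- non-tumor lung and 1340% in that of Nrf2+/+ mice. Its tumor difference was 0.07 and -0.16, within the software error of 0.20.

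The genes that drive entry into mitosis were all higher in Nrf2+/+ tumor than in Nrf2+/+ non-tumor lung. The 8 measured had a median tumor difference of 0.36 in Nrf2-/- mice and 1.34 in Nrf2+/+ mice, and 1 and 7 of the 8 were at least 2-fold higher in tumor, or 1 and 6 with Cdc25c at its bound, against 5.43% and 8.08% of all genes. Cdk1 had tumor differences of 0.60 in Nrf2-/- mice (software error 0.22) and 1.74 in Nrf2+/+ mice (0.21). Ccnb1, the cyclin B1 that activates it, had scaled signals of 12.9% in Nrf2-/- tumor, 23.1% in Nrf2+/+ tumor, 10.1% in Nrf2-/- non-tumor lung and 7.23% in that of Nrf2+/+ mice.

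The tumor difference of Ccnb1 was 0.35 in Nrf2-/- mice and 1.67 in Nrf2+/+ mice. Its 2 dimmer probes gave 0.31 and 1.57, and 0.36 and 1.09, so the size of the Nrf2+/+ value varied with the probe. Ccnb2, the second B-type cyclin, had 0.24 (-0.03 under spike-in scaling) and 1.14, Ccna2, cyclin A2, had 0.31 and 1.36, and Plk1, polo-like kinase, had 0.06 and 1.14. The mitotic kinase Aurka gave 0.47 and 1.31. Foxm1, the transcription factor that acts on G2 and mitotic promoters, had the smallest Nrf2+/+ value of the role: its scaled signals were 35.0% in Nrf2-/- tumor, 50.3% in Nrf2+/+ tumor, 26.9% in Nrf2-/- non-tumor lung and 25.8% in that of Nrf2+/+ mice, with tumor differences of 0.38 and 0.96.

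Cdc25c, the phosphatase that removes the inhibitory phosphates from Cdk1, departed from this pattern. Its scaled signals were 8.94% in Nrf2-/- tumor and 4.97% in Nrf2+/+ tumor, against 2.52% in Nrf2-/- non-tumor lung and 1.33% in that of Nrf2+/+ mice, where it was not well above background. Set against the dimmest level still above background there, Cdc25c was at least 3.23-fold higher in Nrf2-/- tumor and at least 1.73-fold higher in Nrf2+/+ tumor. It was 0.85 higher in Nrf2-/- than in Nrf2+/+ tumor on the log2 scale, with a software error of 0.37. A second Cdc25c probe was below background on all arrays.

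The 5 genes of the spindle checkpoint and of anaphase had median tumor differences of 0.44 in Nrf2-/- mice and 1.01 in Nrf2+/+ mice. Cdc20, the activator of the anaphase-promoting complex, had scaled signals of 549% in Nrf2-/- tumor, 986% in Nrf2+/+ tumor, 406% in Nrf2-/- non-tumor lung and 352% in that of Nrf2+/+ mice. The checkpoint kinase-like protein Bub1b had 19.5% in Nrf2-/- tumor, 25.5% in Nrf2+/+ tumor, 12.6% in Nrf2-/- non-tumor lung and 11.4% in that of Nrf2+/+ mice. Their tumor differences were 0.44 and 0.63 in Nrf2-/- mice and 1.49 and 1.16 in Nrf2+/+ mice.

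Ube2c, the ubiquitin-conjugating enzyme of the same complex, had scaled signals of 51.1% in Nrf2-/- tumor, 104% in Nrf2+/+ tumor, 39.2% in Nrf2-/- non-tumor lung and 52.0% in that of Nrf2+/+ mice. Ube2c was lower in Nrf2-/- than in Nrf2+/+ mice in both tissues, by -1.03 in tumor and -0.41 in non-tumor lung. For the checkpoint protein Mad2l1 the same differences were -0.70 and -0.18, the latter within a software error of 0.22. Bub1, the checkpoint kinase, was the exception. Its scaled signals of 57.1% in Nrf2-/- tumor, 52.5% in Nrf2+/+ tumor, 39.0% in Nrf2-/- non-tumor lung and 44.7% in that of Nrf2+/+ mice gave tumor differences of 0.55 in Nrf2-/- mice and 0.23 in Nrf2+/+ mice. A dimmer Bub1 probe gave -0.42 and 0.22. Both the Nrf2-/- direction for Bub1 and its place as the exception thus rest on the probe.

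The 11 measured genes of chromosomes, kinetochores, spindle and cytokinesis had a median tumor difference of 0.29 in Nrf2-/- mice and 1.29 in Nrf2+/+ mice. Kif23, the kinesin of the central spindle that is needed for cytokinesis, was far above non-tumor lung in both tumor pools. Its scaled signals were 24.7% in Nrf2-/- tumor and 29.1% in Nrf2+/+ tumor, against 8.50% in Nrf2-/- non-tumor lung and 6.94% in that of Nrf2+/+ mice. The tumor difference was 1.54 in Nrf2-/- mice (software error 0.24) and 2.07 in Nrf2+/+ mice (0.25), and a second probe gave 1.28 and 2.09. Kif23 and Cdc25c were the 2 members at least 2-fold higher in Nrf2-/- tumor than in Nrf2-/- non-tumor lung.

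The chromosomal passenger complex corrects faulty attachments of chromosomes. Its member Birc5, survivin, had scaled signals of 182% in Nrf2-/- tumor, 295% in Nrf2+/+ tumor, 152% in Nrf2-/- non-tumor lung and 108% in that of Nrf2+/+ mice, with tumor differences of 0.26 (-0.0039 under spike-in scaling) and 1.44. Cdca8, borealin, had 0.49 and 1.33. Aurkb, the kinase of the complex, was above background on 2 arrays, Nrf2+/+ tumor and Nrf2-/- non-tumor lung, and was at least 2.90-fold higher in Nrf2+/+ tumor than in Nrf2+/+ non-tumor lung. Nusap1, a spindle-associated protein, had the smallest Nrf2+/+ difference of the role, with scaled signals of 14.9% in Nrf2-/- tumor, 25.9% in Nrf2+/+ tumor, 13.5% in Nrf2-/- non-tumor lung and 13.2% in that of Nrf2+/+ mice.

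**Figure D2:**
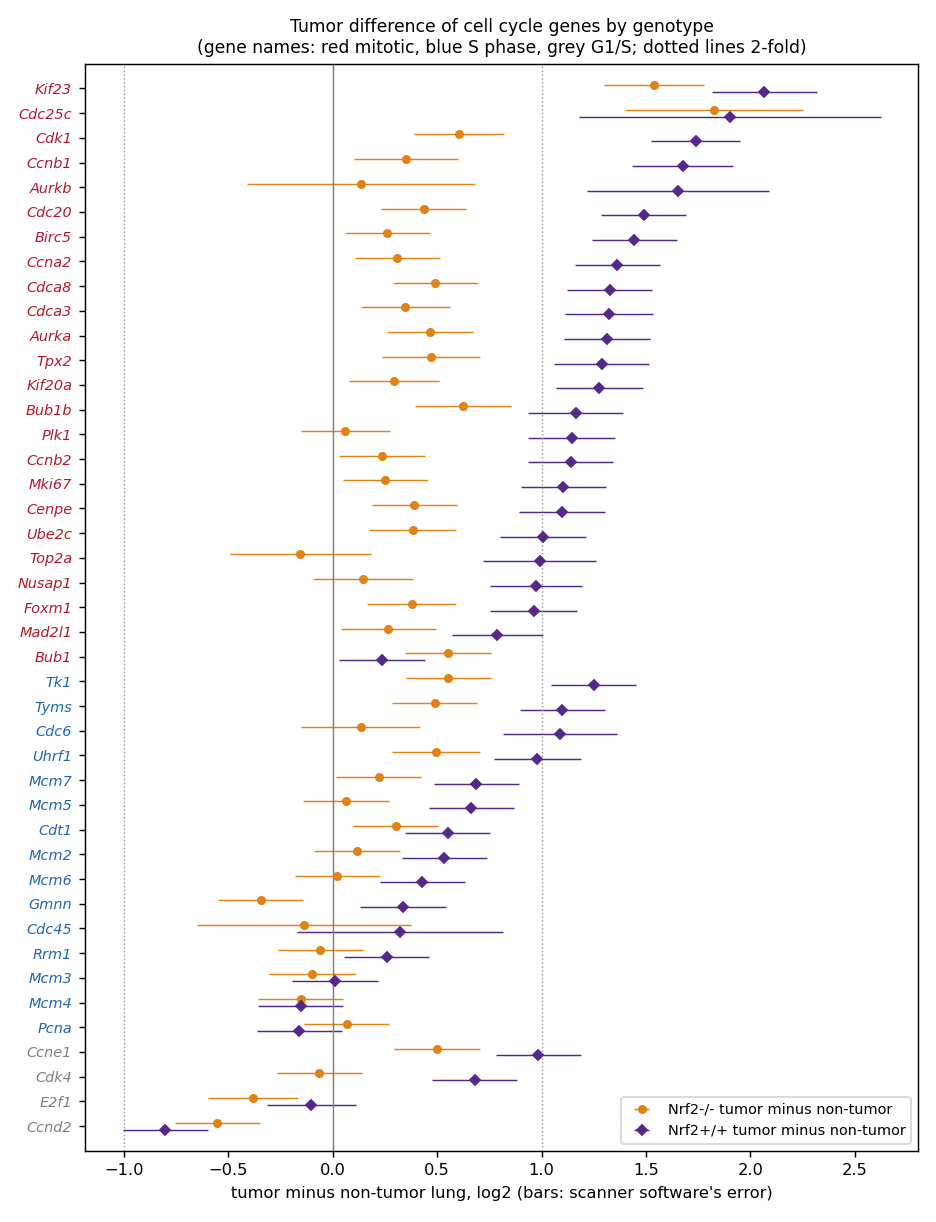
Log2 tumor minus non-tumor lung (x axis) for the 43 measured genes (rows) in Nrf2-/- mice (circles) and Nrf2+/+ mice (diamonds), with bars of 1 scanner software error and dotted lines at 2-fold. All 24 mitotic diamonds lie to the right of 0, and the Nrf2-/- circles lie to the left of the Nrf2+/+ diamonds for 23 of the 24. Cdc25c and Aurkb are drawn at the values they read, also where these were below background.

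The difference of the tumor differences, Nrf2-/- minus Nrf2+/+, was below 0 for 23 of 24 mitotic genes and 14 of 15 S phase genes, as for 52.6% of all genes. Its median was -0.85 for the mitotic and -0.46 for the S phase genes. It was -1 or less for 8 mitotic genes and 0 S phase genes, against 3.98% of all genes. Over genes above background on all 4 arrays, 21 of 22 mitotic genes were below 0 (56.2% of all genes) and 7 were at -1 or less (1.65%). Ccnb1 (-1.32), Birc5 (-1.18), Top2a (-1.15) and Cdk1 (-1.13), each on its brightest probe, were among the 8. Bub1 (0.32) was the mitotic gene above 0 on its brighter probe. On its dimmer probe Bub1 lay below 0, with tumor differences of -0.42 in Nrf2-/- mice and 0.22 in Nrf2+/+ mice. Across the 40 members above background on all arrays the tumor differences of the genotypes, which share no array, had a Pearson r of 0.76 and a Spearman rho of 0.65, and across all 16287 such genes 0.80 and 0.78. Genes, over which these were taken, do not count as independent replicates.

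Within a single slide, the tumor pools of both genotypes could be compared directly. Of 42 members, 3 were at least 2-fold lower in Nrf2-/- tumor than in Nrf2+/+ tumor, against 3.67% of all genes, and 0 were at least 2-fold higher, against 4.29%. The 3 were Gmnn (-1.26), Cdk1 (-1.03) and Ube2c (-1.03). A mark of 1.5-fold, chosen after the values were seen, gave 17 lower and 3 higher. The share of all genes past that mark was not counted, so these counts have no background to be read against. The shift was broad and small in the mitotic genes, with a median of -0.70 over 24 genes, 22 of them below 0 (53.7% of all genes) and 19 lower by more than 1.96 software errors (9.57% of all genes).

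The S phase genes shifted less between the tumor pools. Their median was -0.17, and 11 of 14 were below 0, against 53.7% of all genes. Of the 14, 2 were lower by more than 1.96 software errors, against 9.57% of all genes. Genes of chromosomes, spindle and cytokinesis above background in both tumor pools lay from -0.96 for Top2a to -0.24 for Kif23, and Aurkb, below background in Nrf2-/- tumor, was at least 1.65-fold lower there. Cdc25c (0.85), Ccnd2 (0.66) and Tk1 (0.63) stood above 0 by more than the software error. The gap between the mitotic and the S phase medians was -0.53 here, and it lay between -0.53 and -0.34 under the other settings.

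**Figure D3:**
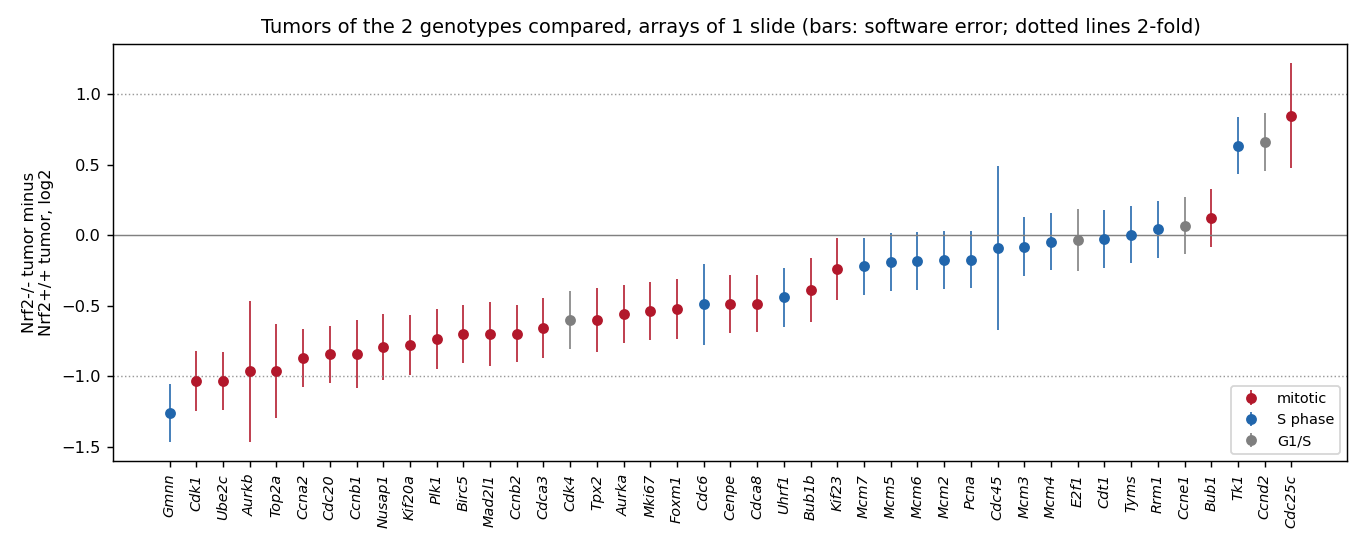
Log2 Nrf2-/- tumor minus Nrf2+/+ tumor (y axis) for each gene measured on at least 1 array (x axis, sorted), with bars of 1 scanner software error, dotted lines at 2-fold and colors for mitotic, S phase and G1/S genes. Mitotic genes fill most of the left side between -1.03 and -0.24, S phase genes run from Gmnn (-1.26) to Tk1 (0.63), and Cdc25c is at the right end. Aurkb, below background in Nrf2-/- tumor, is drawn at the value it read.

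In non-tumor lung most members read slightly higher in Nrf2-/- than in Nrf2+/+ mice: 36 of 42 were above 0, among them 20 of 23 mitotic and 12 of 15 S phase genes, against 52.1% of all genes. The median Nrf2-/- minus Nrf2+/+ difference was 0.21 for the mitotic and 0.25 for the S phase genes, and 0.01 for all genes. Of 42 members, 1 was at least 2-fold higher in Nrf2-/- non-tumor lung, against 3.04% of all genes, and 0 were at least 2-fold lower, against 4.61%. That gene was Tk1 (1.33), and the next was Tyms at 0.61. This comparison crosses slides. With slide held as a block the fit leaves no residual degree of freedom, and the medians by construction take the values of the tumor pools, -0.70 and -0.17.

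A fit over all 4 arrays with tissue and genotype as additive terms was the single test the design allowed, with 1 residual degree of freedom. It takes the genotype dependence of the tumor difference as error. That dependence therefore widens the standard error of a member's tumor effect and was not itself tested. By limma with Benjamini-Hochberg adjustment, 0 of 43 members and 0 of 20553 genes passed 0.05 for the tumor effect, the smallest adjusted p being 0.0707. At an unadjusted p under 0.05 there were 12 members (27.9%, with 29.7% of all genes), 11 of them higher in tumor, where 11.8% of all genes were higher, and Ccnd2 lower, with 17.9% of all genes. Kif23 had a tumor effect of 1.80 ± 0.21 (log2, SE, limma adjusted p = 0.0715). For the genotype effect 0 members passed, and 5 had an unadjusted p under 0.05 (11.6%, with 9.29% of all genes). Tk1, Ccnd2 and Cdc25c were higher in Nrf2-/- mice, with 4.79% of all genes, and Gmnn and Ube2c lower, with 4.5%. Cdc25c, which had the smallest adjusted p for the tumor effect and was among the 11, was below background in both non-tumor pools. Both of its effects thus rest in part on readings below background.

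Restricting the limma fit to the 16287 genes above background on all 4 arrays gave 3852 genes with an adjusted p under 0.05 for the tumor effect (23.7%). They included 11 of 40 members: 6 mitotic genes, 3 S phase genes (Tk1, Tyms and Uhrf1) and Ccne1 higher in tumor, and Ccnd2 lower. Of all genes 10.8% were higher and 12.8% lower in that fit. The 6 mitotic genes were Kif23, Bub1b, Cdk1, Cdca8, Tpx2 and Aurka.

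The promoters of these genes were read to see which short motifs the mitotic and the S phase genes share. RefSeq (GRCm38.p6) listed 42 promoters for 39 of the 50 genes, each 250 bases before to 50 bases after the transcription start. The letters TTTGAA, the cell cycle genes homology region (CHR) bound by the DREAM and MuvB complexes, were searched on both strands. They stood in 16 of 22 mitotic promoters (72.7%) and in 2 of 16 S phase promoters (12.5%), against 17.9% of all 32851 promoters. Any of 4 E2F words (TTTGGCGC, TTTCGCGC, TTTCCCGC, TTTGCCGC) stood in 1 of 22 mitotic promoters (4.55%) and 7 of 16 S phase promoters (43.8%), against 2.26% of all. The letters CCAAT, bound by NF-Y, stood in 86.4% of the mitotic and 75% of the S phase promoters and in 37.4% of all.

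**Figure D4:**
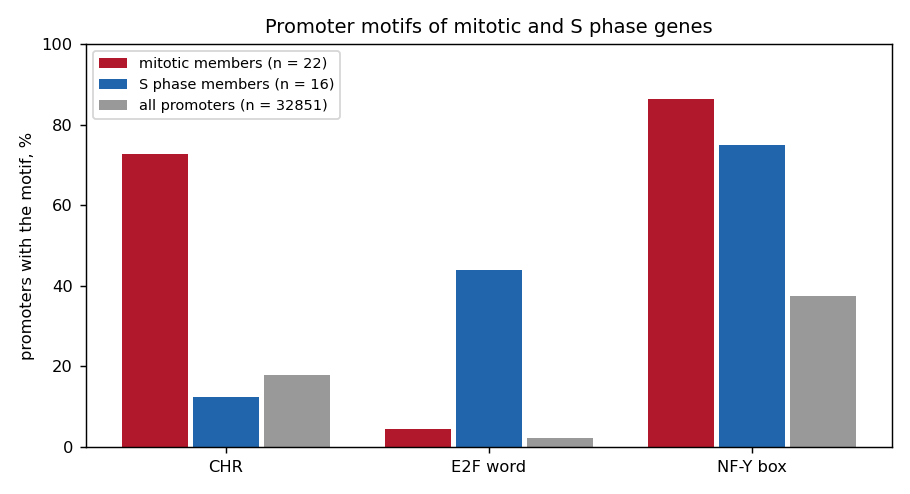
Percent of promoters (y axis, from 250 bases before to 50 after the start) that hold the CHR letters, an E2F word or the NF-Y letters (x axis), for 22 mitotic promoters, 16 S phase promoters and all 32851 promoters. CHR letters are most frequent in the mitotic set at 72.7% and E2F words in the S phase set at 43.8%.

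The 3 S phase and 3 mitotic genes with the largest Nrf2+/+ tumor difference and a promoter entry are shown, with Mcm6 and Cdc20 added for their motifs after these were seen. Each line gives 150 bases before to 20 after the start on the gene's own strand in GRCm38.p6, and capitals mark CHR letters and E2F words on either strand, 2 overlapping E2F words being run together in Mcm6.
Tk1, chr11:117825995-117826164, minus strand: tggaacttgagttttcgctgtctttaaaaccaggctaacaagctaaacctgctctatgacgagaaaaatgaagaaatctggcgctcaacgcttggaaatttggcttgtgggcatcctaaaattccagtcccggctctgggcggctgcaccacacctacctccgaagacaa
Tyms, chr5:30073606-30073775, minus strand: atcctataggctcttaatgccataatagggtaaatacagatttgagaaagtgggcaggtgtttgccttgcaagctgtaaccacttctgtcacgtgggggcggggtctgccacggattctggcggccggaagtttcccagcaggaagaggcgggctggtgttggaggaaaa
Cdc6, chr11:98908001-98908170, plus strand: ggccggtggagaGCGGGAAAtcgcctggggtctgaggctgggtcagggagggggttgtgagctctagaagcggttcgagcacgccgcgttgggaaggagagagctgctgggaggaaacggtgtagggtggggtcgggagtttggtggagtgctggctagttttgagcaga
Mcm6, chr1:128359686-128359855, minus strand: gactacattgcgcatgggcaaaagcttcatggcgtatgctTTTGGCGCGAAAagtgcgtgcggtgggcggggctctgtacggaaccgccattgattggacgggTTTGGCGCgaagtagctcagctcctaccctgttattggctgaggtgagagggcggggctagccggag
Kif23, chr9:61946780-61946949, minus strand: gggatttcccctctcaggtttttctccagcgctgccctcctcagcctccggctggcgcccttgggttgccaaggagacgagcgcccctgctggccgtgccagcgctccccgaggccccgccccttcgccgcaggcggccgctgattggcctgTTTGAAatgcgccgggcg
Cdk1, chr10:69352893-69353062, minus strand: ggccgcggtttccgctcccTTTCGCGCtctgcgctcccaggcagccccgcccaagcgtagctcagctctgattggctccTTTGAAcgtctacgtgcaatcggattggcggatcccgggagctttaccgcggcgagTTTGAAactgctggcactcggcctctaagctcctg
Ccnb1, chr13:100786467-100786636, minus strand: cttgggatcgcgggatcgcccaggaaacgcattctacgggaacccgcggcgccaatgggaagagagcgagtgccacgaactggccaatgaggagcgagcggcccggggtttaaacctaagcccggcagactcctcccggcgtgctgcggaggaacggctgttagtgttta
Cdc20, chr4:118437324-118437493, minus strand: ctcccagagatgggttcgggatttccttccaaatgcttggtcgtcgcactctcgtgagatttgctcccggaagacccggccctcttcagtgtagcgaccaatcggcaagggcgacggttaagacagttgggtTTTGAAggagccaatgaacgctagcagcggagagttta
Cdk1 holds a pair of CHR matches, starting 71 and 15 bases before the transcription start, and an E2F word, and Cdc20 and Kif23 hold 1 CHR match each, near the start. Ccnb1, which had the next largest Nrf2+/+ tumor difference after Cdk1 among these promoters, holds neither motif in the window but CCAAT at 99 and 67 bases before the start. Mcm6 holds 3 E2F words and Cdc6 holds 1. Tk1 and Tyms hold none of the letters searched. A match of letters is a description of the sequence, and binding was not measured.

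Mitotic genes with and without CHR letters overlapped in their differences. Over 12 measured mitotic genes with them the median tumor difference was 0.41 in Nrf2-/- mice and 1.24 in Nrf2+/+ mice (0.99 to 2.07), and over 6 without them 0.31 and 1.04 (0.23 to 1.67). Between the tumor pools the medians were -0.68 and -0.70.

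Genes of the same processes that were not among the 50 gave a smaller version of the pattern. Over 49 measured genes of mitosis the median tumor difference was 0.16 in Nrf2-/- mice and 0.73 in Nrf2+/+ mice, and 1 of 46 and 23 of 48 were at least 2-fold higher in tumor (21 with dim genes at their bound), against 5.43% and 8.08% of all genes. Between the tumor pools their median was -0.58, with 42 of 45 below 0, against 53.7% of all genes. Cks1b, a small subunit of cyclin-dependent kinases, had scaled signals of 653% in Nrf2-/- tumor, 964% in Nrf2+/+ tumor, 274% in Nrf2-/- non-tumor lung and 197% in that of Nrf2+/+ mice. Cyclin F, Ccnf, had tumor differences of 0.86 and 1.61. Dlgap5, a spindle protein, was above background in Nrf2+/+ tumor only, and Aspm, a spindle pole protein, in Nrf2-/- non-tumor lung only.

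Over 48 further genes of DNA replication the medians were 0.03 in Nrf2-/- mice and 0.34 in Nrf2+/+ mice, with 0 of 47 and 6 of 48 at least 2-fold higher in tumor, against 5.43% and 8.08% of all genes. The repair exonuclease Exo1 (0.57 and 1.51), the clamp loader subunit Rfc5 (0.56 and 1.16) and the helicase subunit Gins2 (0.57 and 1.08) had the largest sums of both values among those higher in tumor.

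Inhibitors of the cycle had no common direction, with medians over 19 genes of -0.16 in Nrf2-/- mice and -0.02 in Nrf2+/+ mice. Of the kinase inhibitors, Cdkn1c (p57) had scaled signals of 80.6% in Nrf2-/- tumor and 87.0% in Nrf2+/+ tumor, against 231% in Nrf2-/- non-tumor lung and 281% in that of Nrf2+/+ mice. Cdkn2c (p18) was lower in tumor by -0.94 and -1.21, and Cdkn1b (p27) by -0.30 and -0.89. Cdkn1a (p21) was nearly level, with tumor differences of 0.16 and 0.12.

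Cdkn2a, which encodes p16 and p19Arf, stood out by a single pool. Its scaled signals were 28.3% in Nrf2-/- tumor, 37.6% in Nrf2+/+ tumor and 27.3% in Nrf2-/- non-tumor lung, and the Nrf2+/+ non-tumor pool was not well above background for it. Against that pool Cdkn2a was at least 12.9-fold higher in Nrf2+/+ tumor and at least 9.33-fold higher in Nrf2-/- non-tumor lung, and its tumor difference was 0.05 in Nrf2-/- mice. The Nrf2+/+ non-tumor array was the one alone on its slide.

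Of the growth transcription factors, Myc had tumor differences of 0.86 in Nrf2-/- mice and 1.17 in Nrf2+/+ mice. Mycn, its paralog, was raised in Nrf2+/+ tumor alone, with scaled signals of 23.6% in Nrf2-/- tumor, 202% in Nrf2+/+ tumor, 23.1% in Nrf2-/- non-tumor lung and 26.8% in that of Nrf2+/+ mice. E2f3, an activating E2F, had 0.21 and 1.02, and the D-type cyclin Ccnd3 had -0.27 and -0.09.

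Markers of several cell types differed between the same pools. Alveolar type 2 markers had median tumor differences of 0.89 in Nrf2-/- mice and 1.18 in Nrf2+/+ mice, with all 11 above 0 in both, and a median of 0.05 between the tumor pools. Their summed scaled level, in multiples of the 75th percentile, was 1461 in Nrf2-/- tumor and 1386 in Nrf2+/+ tumor, against 892 in Nrf2-/- non-tumor lung and 747 in that of Nrf2+/+ mice. Muc1, an epithelial mucin of these cells, had tumor differences of 1.81 and 2.15.

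Lymphocyte markers had higher medians in Nrf2-/- than in Nrf2+/+ tumor, and their tumor differences varied with the cell type and genotype. Median tumor differences in Nrf2-/- and Nrf2+/+ mice were -0.26 and -0.77 for T and NK cell, 0.04 and -0.89 for B and plasma cell, and 0.20 and -0.75 for germinal center B cell markers. T and NK cell markers (14 measured, Cd4 below background on every array) had a median of 0.73 in Nrf2-/- minus Nrf2+/+ tumor, and the sum of their scaled levels was 13.0 in Nrf2-/- tumor, 7.88 in Nrf2+/+ tumor, 16.7 in Nrf2-/- non-tumor lung and 14.4 in that of Nrf2+/+ mice. For B and plasma cell markers (12 measured, Pax5 below background) the median was 0.51 and the sums were 30.6, 20.5, 17.1 and 20.4 in that order of groups. Jchain, the joining chain of secreted antibodies, had a scaled signal of 871% in Nrf2-/- tumor and 188% to 208% elsewhere. Germinal center B cell markers (5 measured, Rgs13 below background) had a median of 0.38 and sums of 18.6, 17.2, 16.5 and 19.1.

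Erythroid precursor markers (7 measured, Epb42 and Rhag below background) had sums of 413 in Nrf2-/- tumor, 479 in Nrf2+/+ tumor, 590 in Nrf2-/- non-tumor lung and 643 in that of Nrf2+/+ mice. Medians of Nrf2-/- minus Nrf2+/+ tumor were 0.48 for 14 macrophage, 0.33 for 10 neutrophil, 0.45 for 10 fibroblast, 0.22 for 12 endothelial, -1.08 for 11 ciliated cell and 0.14 for 10 cardiac muscle markers. Cardiac muscle markers were present in all pools, with median tumor differences of -2.49 in Nrf2-/- mice and -2.61 in Nrf2+/+ mice. The part of these shifts in the cell cycle differences was not tested.

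**Figure D5:**
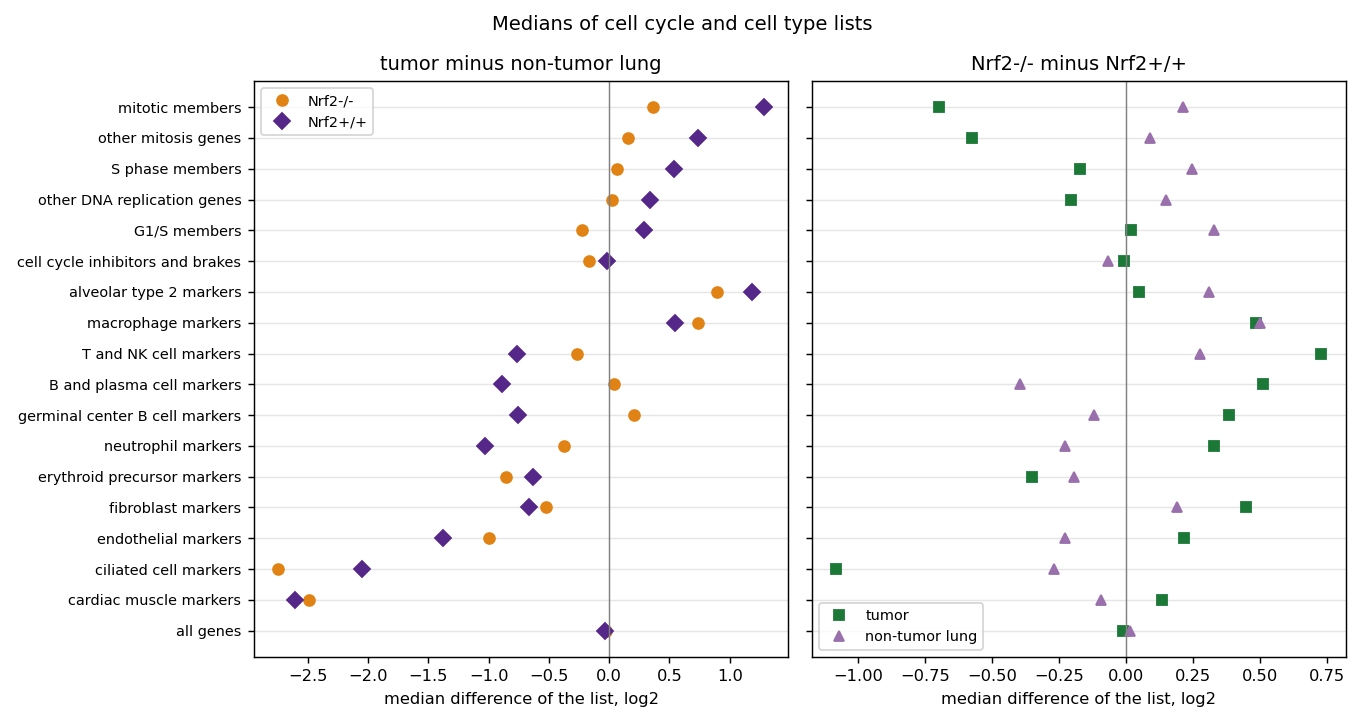
Median log2 tumor minus non-tumor difference by genotype (left) and median Nrf2-/- minus Nrf2+/+ difference by tissue (right) for the cell cycle genes, related gene lists, cell type marker lists and all genes (rows). Mitotic genes have the highest Nrf2+/+ tumor median (1.28) and a tumor genotype median of -0.70, while the T and NK cell list has the highest tumor genotype median (0.73).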

How the data were processed

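RNA of 4 pools of 8 mice was labelled with Cy3 and hybridised to Agilent whole-mouse-genome arrays (design 014868), per the labels and the file headers. Per the file headers, the deposited files give the intensity of each spot, unlogged, which Agilent Feature Extraction 10.7.3.1 had corrected for background and spatial trend. The sources used here name no step that made the arrays comparable. The deposited value table equalled the processed intensity within 0.497%, was neither logged nor centred, and had medians of 50.1 (Nrf2-/- tumor), 47.2 (Nrf2+/+ tumor), 70.0 (Nrf2-/- non-tumor lung) and 79.2 (Nrf2+/+ non-tumor lung). Groups, of 1 array each, are those of the labels.

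From the deposited intensity log2 values were made and centred on the 75th percentile of the array's spots other than controls. Spots of a probe were averaged, and the probe with the highest mean level stood for a gene. Genes were named by matching each probe's accession, without version, to a RefSeq table (assembly GRCm38.p6): 26686 of 41174 probes had a symbol. The array design is on another build, so coordinates are given for RefSeq promoters only. A gene entered a count of 2-fold differences if it was well above background on either array compared, and a median if it was so on any of the 4. A fold written "at least" sets the brighter level against the lowest level well above background on the dimmer array, or, where higher, against what the gene itself read there. The additive fit used limma 3.58.1 in R 4.3.3 (lmFit, eBayes, Benjamini-Hochberg), tested on simulated data. Other steps used Python 3.11.15, numpy 2.4.6, pandas 2.3.3 and matplotlib 3.10.9.

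Alternatives were other scalings (the median, probes on all arrays, quantile, 7 spike-in probes), normexp background correction with an offset of 50 (on median spot intensity, since the mean was not among the columns), the value table, the mean of a gene's probes, other filters on dim probes and slide as a block. Values on all arrays are printed for Mki67, Cdk1 and Top2a, for the 2 largest and the smallest Nrf2+/+ tumor difference in each of 6 roles, for members past 2-fold in the other comparisons and for members whose probes disagree. Up to 4 genes of each other list are named, those with the largest summed tumor difference, and Cdkn1a, Cdkn2a, Ccnd3 and Myc in any case. A gene that this rule picks is not reported here. The members, lists, rules and alternatives were chosen with earlier results of these data known.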

Additional observations from a re-analysis of the deposited data

Results flagged for a closer look

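Gmnn was lower in tumor than in non-tumor lung in Nrf2-/- mice (-0.35 on the log2 scale) and higher in tumor in Nrf2+/+ mice (0.34), each by more than the scanner software's error of 0.20. With 1 array per group the difference between these tumor differences, -0.68, was not tested. Of the other members above background on all 4 arrays, Cdk4 (-0.07 in Nrf2-/- and 0.68 in Nrf2+/+ mice), Top2a (-0.16 and 0.99), Rrm1 (-0.06 and 0.26), Mcm3 (-0.10 and 0.01) and Pcna (0.07 and -0.16) also had opposite signs, with at least 1 of the 2 values within the software's error.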

How the results depend on the processing

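With 1 pooled array per group no replicate could be left out, and Cdc25c and Aurkb, each below background on 2 arrays, have only bounds against those arrays. No paired analysis was possible because each group has 1 array and the labels number no replicates. The median difference of the mitotic genes kept its direction in each comparison under all scalings, background corrections, probe rules and filters run: it lay between 0.10 and 0.50 for the Nrf2-/- tumor difference, 0.92 and 1.57 for the Nrf2+/+ tumor difference, and -0.79 and -0.49 between the tumor pools. Scaling on the median gave Nrf2+/+ tumor medians of 1.57 (mitotic) and 0.83 (S phase), and shifted the median of all genes by 0.29 in that pair and 0.14 in the Nrf2-/- pair. Spike-in scaling shifted it by -0.26 in the Nrf2-/- pair and -0.20 in the Nrf2+/+ pair. Under it the Nrf2-/- tumor medians were 0.10 (mitotic) and -0.20 (S phase), the members at least 2-fold higher in Nrf2+/+ tumor numbered 14 and lower 1, and 5 were 2-fold lower in Nrf2-/- tumor than in Nrf2+/+ tumor. Of the Nrf2-/- tumor differences larger than their software error, those of Mcm7 (-0.045), Ccnb2 (-0.030), Mki67 (-0.013) and Birc5 (-0.0039) changed sign under spike-in scaling. Differences within the software error, such as that of Plk1, also changed sign and are not listed.

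Normexp gave 0 members 2-fold higher in Nrf2-/- tumor and 12 in Nrf2+/+ tumor, 1 lower in Nrf2-/- than in Nrf2+/+ tumor, a mitotic median of 0.92 in the Nrf2+/+ pair and a mitotic difference of tumor differences of -0.54. With no filter on dim probes, 4 members were 2-fold higher in Nrf2-/- tumor, 1 lower in Nrf2+/+ tumor, 2 lower in Nrf2-/- non-tumor lung and 1 higher in Nrf2-/- than in Nrf2+/+ tumor, and with genes on all 4 arrays only, 1 was higher in Nrf2-/- tumor. A 1.5-fold mark, like leaving out Cdc25c and Aurkb or counting dim genes at their bound, was chosen after seeing the data: it gave 4 higher in Nrf2-/- tumor, 1 lower in Nrf2+/+ tumor, 2 higher in Nrf2-/- non-tumor lung, and 3 higher and 17 lower in Nrf2-/- than in Nrf2+/+ tumor. Except with dim genes at their bound, the share of all genes past a fold mark was not counted under the alternatives of this section. With slide as a block, the lone Nrf2+/+ non-tumor array is taken up by its slide term, so the values are fixed by the remaining arrays. By construction the Nrf2+/+ tumor difference then takes the Nrf2-/- medians, 0.36 (mitotic) and 0.066 (S phase). The non-tumor genotype medians likewise take those of the tumor pools, -0.70 and -0.17, with no test.

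The additive tumor effect called 0 members and 0 genes as fitted. It called 2 members and 2155 genes with median scaling, 2 and 2464 with spike-in scaling, 5 and 3123 with normexp, 11 and 3852 with genes on all 4 arrays, and 2 and 769 with no filter. For the genotype effect it called 78, 1, 52, 150 and 1 genes under these settings in the same order, and the cause was not tested. The CHR share in a window of 150 bases before the start was 72.7% for mitotic, 12.5% for S phase and 11.2% for all promoters, and the E2F share was 4.55%, 37.5% and 1.66%.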
